A study of Mus musculus with 12 samples.

Results

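A set of immediate early genes, 9 of the 18784 genes measured, was followed across mouse embryonic stem cells (ESC) and neural progenitor cells (NPC) with and without knockdown of Jarid1b. They were the AP-1 subunit genes Fos, Fosb, Jun and Junb, the related factor Atf3, the zinc finger factor Egr1, the growth-factor-induced genes Ier2 and Ier3, and the phosphatase Dusp1. The set was a list of names, drawn up with earlier results of these data known, and was matched by gene symbol. Each of the 9 had 1 probe set with its symbol alone in the platform annotation, so none was lost to a filter or to a choice between probe sets.

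Immediate early genes are transcribed within minutes of a stimulus such as serum, a growth factor or stress, without new protein synthesis. MAP kinases carry the signal to factors already bound at these genes, among them SRF with its Elk partners and CREB. AP-1 is a dimer of basic leucine zipper proteins, typically a Fos with a Jun protein, that binds DNA at a short palindromic element. Dusp1 removes phosphates from MAP kinases and so limits the same signal. In bulk RNA a level reflects both how many cells respond and how strongly each does, and these cannot be told apart here.

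All cells derived from the feeder-independent ESC line E14TG2a.4 and were transduced with a lentiviral PLKO.1 vector. Control cells carried a scrambled shRNA and knockdown cells an shRNA against Jarid1b, whose current symbol is Kdm5b, a histone demethylase. The labels name 1 Jarid1b construct. ESC were grown without feeders in medium with 15% serum and LIF, received virus for 16 h and were put under puromycin from 48 h after transduction. NPC were differentiated from ESC by a published protocol, and the labels do not state the medium or the day at which they were collected. Each of the 4 groups (control ESC, knockdown ESC, control NPC, knockdown NPC) had 3 arrays. The labels do not say whether these came from separate cultures, so p-values reflect only how far these arrays scatter, and that scatter may be technical.

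Values are log2 levels as the authors deposited them, so a difference of 1 is a doubling. Arrays of a group correlated at 0.992 to 0.997 across genes. The targeted gene Kdm5b did not overlap between knockdown and control arrays in either state. It fell by 1.73 ± 0.11 (SE) in ESC and fell by 0.76 ± 0.11 in NPC on the log2 scale (limma, adjusted p = 1.82e-05 and 0.00524). By marker genes, 6 of 6 ESC markers were lower in NPC than in ESC and 5 of 5 neural progenitor markers higher. This held in control and in knockdown cells alike. Markers of other cell types were also higher in control NPC, beside 23.5% of all genes. They were 5 of 5 fibroblast and mesenchyme, 4 of 5 endoderm, 4 of 5 neuronal and 3 of 5 endothelial markers, while 1 neuronal and 2 endothelial markers were lower. In knockdown cells the counts higher were 0, 4, 4 and 1. Within NPC, 3 of 6 ESC markers were higher in knockdown than in control cells. The part of other cells in the state differences was not tested. The lowest value of any of the 9 genes on any array was 7.00, above the lower quartile of every array (5.84 to 6.11). The deposited values carry no detection calls.

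The promoters are shown because immediate early genes are known to respond through short elements close to the start of transcription. RefSeq promoter sequence (GRCm38.p6) was searched for 7 of the 9 genes. The promoters of Ier2 and Egr1 were not among those searched. The 250 bases upstream of the start are printed 5′ to 3′ for the pair that fell in knockdown ESC (Fosb and Jun), for Fos, for Dusp1 and for Ier3, whose knockdown arrays all lay above control. They lie at chr7:19310046-19310295 (minus strand, Fosb), chr4:95052223-95052472 (minus, Jun), chr12:85473640-85473889 (plus, Fos), chr17:26508473-26508722 (minus, Dusp1) and chr17:35821463-35821712 (plus, Ier3). Capitals mark matches to the motifs searched.
Fosb: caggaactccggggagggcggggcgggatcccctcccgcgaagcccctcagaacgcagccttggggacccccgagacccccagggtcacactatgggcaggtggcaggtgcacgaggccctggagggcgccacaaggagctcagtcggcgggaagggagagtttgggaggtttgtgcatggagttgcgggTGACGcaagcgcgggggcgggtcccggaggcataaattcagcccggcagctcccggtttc
Jun: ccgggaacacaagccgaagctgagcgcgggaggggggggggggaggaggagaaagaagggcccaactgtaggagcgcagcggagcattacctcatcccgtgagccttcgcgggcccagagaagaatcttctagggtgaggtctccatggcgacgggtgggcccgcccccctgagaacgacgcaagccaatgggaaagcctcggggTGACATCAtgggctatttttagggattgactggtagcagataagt
Fos: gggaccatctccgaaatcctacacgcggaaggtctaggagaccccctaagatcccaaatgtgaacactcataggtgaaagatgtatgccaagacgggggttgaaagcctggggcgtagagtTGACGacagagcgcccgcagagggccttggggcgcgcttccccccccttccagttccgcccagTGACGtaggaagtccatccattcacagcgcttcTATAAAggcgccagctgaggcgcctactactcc
Dusp1: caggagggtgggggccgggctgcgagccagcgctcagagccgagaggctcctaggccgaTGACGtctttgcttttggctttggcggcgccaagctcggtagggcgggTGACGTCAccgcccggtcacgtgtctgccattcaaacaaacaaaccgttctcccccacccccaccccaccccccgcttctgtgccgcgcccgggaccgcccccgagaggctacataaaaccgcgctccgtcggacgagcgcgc
Ier3: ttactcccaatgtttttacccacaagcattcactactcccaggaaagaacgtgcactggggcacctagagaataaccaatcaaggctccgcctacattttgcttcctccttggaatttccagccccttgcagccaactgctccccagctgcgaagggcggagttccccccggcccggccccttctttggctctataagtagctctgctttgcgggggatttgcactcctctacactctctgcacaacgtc
The motifs were searched on both strands. TGACGTCA, the full cyclic AMP response element, was found in Dusp1 alone of the 7 promoters and in 1.55% of all 32851 promoters in the table. The looser form TGACNTCA, added after the Jun promoter had been read, was found in 2 of 7, as TGACATCA in Jun and as the full element in Dusp1, against 7.49% of all promoters. The shorter TGACG, which is contained in the full element, was found in 5 of 7 (Fos, Fosb, Junb, Atf3 and Dusp1) against 17.8%. The TATA box letters TATAAA were found in Fos alone, against 12.4%. The exact letters TGANTCA of the AP-1 element were found in 0 of 7 (6.75% of all promoters), as was the CArG box bound by SRF (1.47%). TGACATCA in Jun is a longer form of these AP-1 letters and was counted under TGACNTCA alone. A match describes these letters in this window and is not evidence of binding. A missing match speaks only for the exact letters in these 250 bases. Sequence further upstream and other forms of the AP-1 element were not searched for it.

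In ESC, knockdown went with lower levels of Fosb and Jun. Fosb fell by 1.57 ± 0.39 (SE) on the log2 scale, 2.97-fold, and Jun fell by 0.94 ± 0.21, 1.92-fold (limma, adjusted p = 0.0373 and 0.0232). No member rose by the test. These 2 of 9 genes called lower stand beside 3.37% of all genes called lower, and the 0 called higher beside 1.84%. The median change of the 9 genes was -0.68, against 0.017 over all genes, with 7 below 0 and 2 above. These signs come from genes on shared arrays and carry no test. The groups did not overlap for 4 members that were lower (Fosb, Jun, Atf3 and Dusp1), against 13.6% of all genes. They also did not overlap for 1 that was higher (Ier3), a count near the 10.6% of all genes.

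Fosb encodes a Fos-family partner in AP-1. Its levels were 8.62, 9.83 and 9.98 in the control ESC arrays and 8.44, 7.67 and 7.60 in the knockdown arrays. The lowest control array lay only just above the highest knockdown array. Jun, the founding Jun-family subunit, stood at 8.95, 8.99 and 9.33 in control and 8.62, 8.07 and 7.74 in knockdown ESC, again without overlap. Both calls rested on single arrays, and neither passed when the 6 ESC arrays were fitted alone (adjusted p = 0.0544 for Fosb and 0.0501 for Jun). Fosb was not called when control replicate 2 (adjusted p = 0.116) or 3 (0.184) was left out, nor when knockdown replicate 2 (0.123) or 3 (0.139) was. The Jun call was lost when control replicate 3 (0.126), knockdown replicate 2 (0.0778) or knockdown replicate 3 (0.105) was left out. Over all alternatives the Fosb change lay between -2.00 and -1.32 and the Jun change between -1.18 and -0.75. Their adjusted p lay between 0.00323 and 0.184 for Fosb and between 0.00389 and 0.126 for Jun.

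Fos, the classical serum-induced AP-1 subunit, had levels of 8.68, 9.32 and 9.88 in control ESC. In knockdown ESC they were 9.20, 7.23 and 7.00. Replicates 2 and 3 of the knockdown lay below every control array, whereas replicate 1 lay inside the control range. The fitted change was -1.49 ± 0.47 (95% confidence interval -2.50 to -0.48) and did not pass the test (adjusted p = 0.0884). Egr1, a zinc finger transcription factor, had the same layout of arrays, at 11.47, 11.81 and 11.93 in control and 11.67, 10.42 and 10.41 in knockdown ESC. Its change was -0.91 ± 0.29 (-1.54 to -0.28, adjusted p = 0.0947). Without knockdown replicate 1 the changes were -2.18 for Fos (adjusted p = 0.00498) and -1.32 for Egr1 (0.00686), and both were called. Over all alternatives the adjusted p lay between 0.00498 and 0.342 for Fos and between 0.00686 and 0.318 for Egr1. Kdm5b itself was 10.64 in knockdown replicate 1, between the 10.90 and 10.50 of replicates 2 and 3. The part of knockdown strength in the levels of Fos and Egr1 on single arrays was not tested.

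Atf3, a stress-induced basic leucine zipper factor that dimerises with Jun proteins, was 8.37, 8.26 and 8.68 in control and 7.91, 7.53 and 7.84 in knockdown ESC. All knockdown arrays lay lower, with a change of -0.68 ± 0.21 that did not pass the test (adjusted p = 0.0905). It was called with a replicate block (0.0351), with array weights (0.0175), in the 6 ESC arrays alone (0.0435) and in those with a replicate block (0.0356), over a range of 0.0175 to 0.34. Dusp1 stood at 11.66, 11.86 and 12.33 in control and 11.47, 11.44 and 11.37 in knockdown ESC. Its knockdown arrays were tightly grouped below every control array, and the change of -0.52 ± 0.17 also missed the threshold (adjusted p = 0.103). Without control replicate 1 it was -0.67 and was called (adjusted p = 0.0385, with a range of 0.00964 to 0.412 over all alternatives).

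Junb, a Jun-family subunit that acts differently from Jun at many targets, was 8.62, 8.05 and 8.58 in control and 8.33, 8.10 and 8.21 in knockdown ESC. The groups overlapped and the change was -0.21 ± 0.16 (-0.54 to 0.13). Ier2, a small nuclear protein gene induced with Fos, was 8.62, 8.41 and 8.57 against 8.61, 8.45 and 8.60. Its change of 0.018 ± 0.12 had an interval of -0.23 to 0.27. Ier3, which encodes a regulator of survival signalling, ran the other way, from 8.16, 7.97 and 8.07 in control to 8.37, 8.62 and 8.65 in knockdown ESC. All knockdown arrays were higher, by 0.48 ± 0.15, without passing the test (adjusted p = 0.0945). It was called with array weights (adjusted p = 0.0308). The fit without knockdown NPC replicate 1, an array that enters only through the shared spread, called it too (0.0243). Over all alternatives its adjusted p lay between 0.0243 and 0.269.

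**Figure D1:**
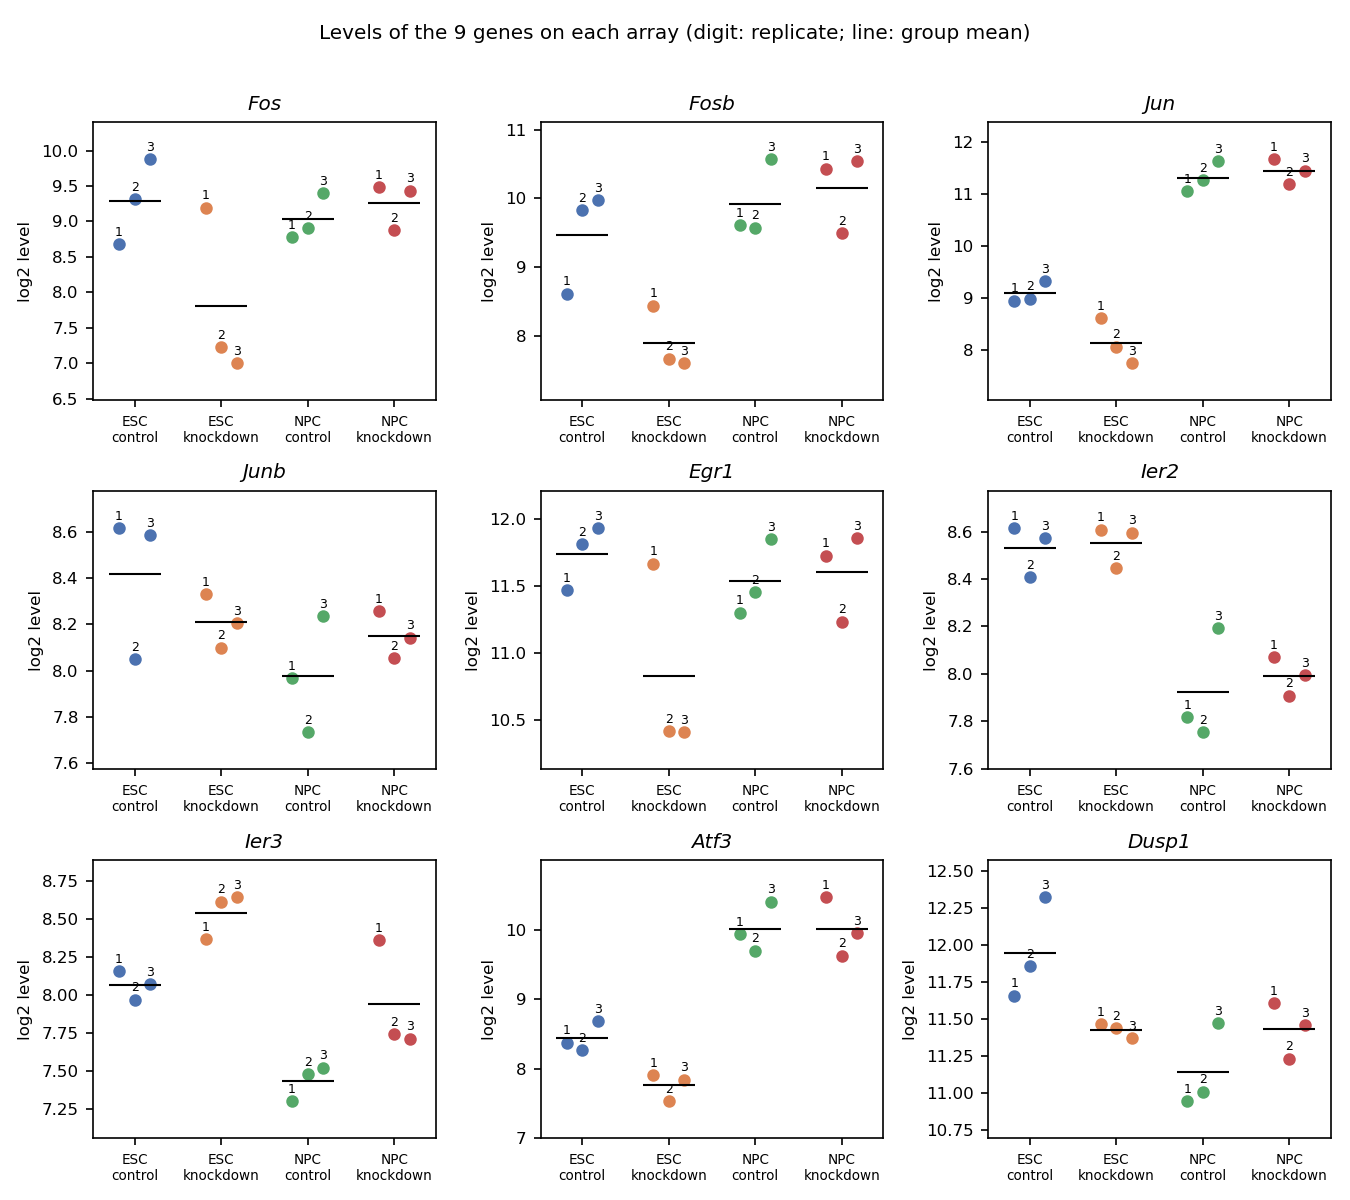
Log2 level of each of the 9 genes (vertical axis, a separate scale per gene) in the 4 groups (horizontal axis), with 1 point per array numbered by replicate and a bar at the group mean. In knockdown ESC, replicate 1 of Fos (9.20) and of Egr1 (11.67) sits within the control range while the other two arrays lie below it.

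In NPC, knockdown had no detected effect on any of the 9 genes. By limma's test 0 of 9 were called in either direction, beside 0.820% of all genes called higher and 0.213% called lower. Beside 1789 of all 18784 genes, a like share, 1 of the 9 had an unadjusted p under 0.05. That gene was Ier3, at 7.30, 7.48 and 7.52 in control and 8.36, 7.74 and 7.71 in knockdown NPC. Its knockdown arrays were all higher, by 0.51 ± 0.15 (0.17 to 0.84, adjusted p = 0.186). It was the only member without overlap between the groups, against 8.30% of all genes higher and 5.91% lower without overlap. That 1 of 9 is near the share of all genes higher. All 9 estimates were above 0, with a median of 0.17 against 0.0037 over all genes. Under alternatives the estimates of Jun, Egr1, Ier2 and Atf3 reached below 0 (lowest -0.0067, -0.0555, -0.015 and -0.22). The 9 genes were read on the same arrays, so their signs are not separate observations and carry no test.

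The AP-1 genes in NPC lay within the spread of the arrays. Fos was 8.78, 8.91 and 9.40 in control and 9.48, 8.87 and 9.44 in knockdown NPC, a change of 0.24 with an interval of -0.77 to 1.25. Fosb was 9.61, 9.57 and 10.58 against 10.44, 9.50 and 10.54, a change of 0.24 (-0.61 to 1.09). Jun was 11.04, 11.26 and 11.62 against 11.67, 11.18 and 11.44, a change of 0.12 (-0.33 to 0.58). None of these 3 intervals reaches the change estimated in ESC (-1.49 for Fos, -1.57 for Fosb and -0.94 for Jun). Those estimates carry their own error: the Fos interval in ESC (-2.50 to -0.48) overlaps that in NPC, while those of Fosb and Jun do not. The test of the difference itself, given further on, called none of the 3. Atf3 was 9.93, 9.70 and 10.40 in control and 10.47, 9.63 and 9.95 in knockdown NPC (change 0.0063, -0.46 to 0.47). Junb was 7.97, 7.73 and 8.24 against 8.26, 8.06 and 8.14 (0.17, -0.16 to 0.51).

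The remaining genes gave the same reading. Egr1 was 11.30, 11.45 and 11.85 in control and 11.72, 11.23 and 11.85 in knockdown NPC (0.069, -0.56 to 0.70). Ier2 was 7.82, 7.75 and 8.19 against 8.07, 7.91 and 7.99 (0.070, -0.18 to 0.32). Dusp1 was 10.95, 11.01 and 11.47 against 11.61, 11.23 and 11.46 (0.29, -0.080 to 0.66). In each of these genes the groups overlapped.

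**Figure D2:**
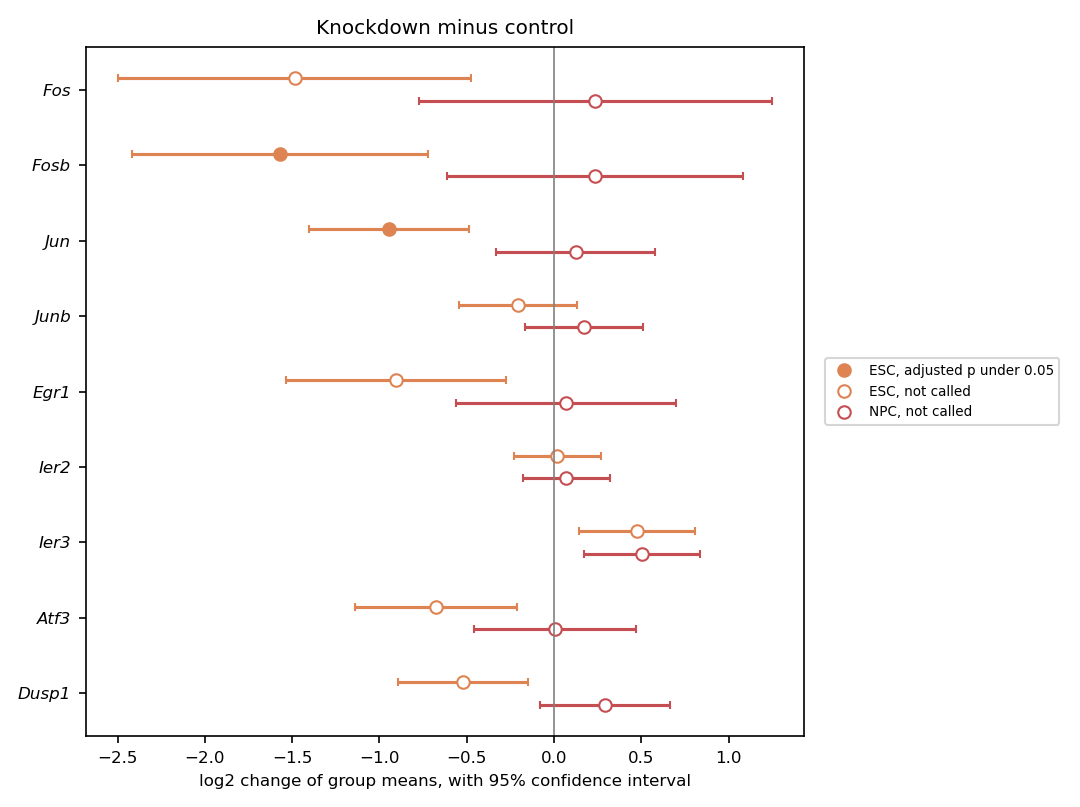
Change in log2 level, knockdown minus control, for each gene in ESC and in NPC (horizontal axis), with limma's 95% confidence interval; filled points have an adjusted p under 0.05. Fosb (-1.57) and Jun (-0.94) in ESC are the filled points, and the intervals in NPC include 0 for every gene but Ier3.

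Whether the effect of knockdown differed between ESC and NPC was tested directly as the NPC effect minus the ESC effect. The knockdown itself was unequal: Kdm5b fell less in NPC, a difference of 0.96 ± 0.16 (limma, adjusted p = 0.0172). Its control level was also lower in NPC (11.23) than in ESC (12.41). The part of this inequality in the differences below was not tested. For the 9 genes, 0 were called higher and 0 lower by limma, beside 1.18% and 0.245% of all genes. An unadjusted p under 0.05 was found for 6 of the 9 and for 2876 of all 18784 genes. The median difference was 0.81, against -0.0067 over all genes. Jun differed by 1.07 ± 0.30 (adjusted p = 0.101), Fosb by 1.81 ± 0.55 (0.135), Dusp1 by 0.81 ± 0.24 (0.125) and Fos by 1.72 ± 0.66 (0.233). Egr1 differed by 0.98 ± 0.41 (adjusted p = 0.282) and Atf3 by 0.68 ± 0.30 (0.302). So the lower levels of Fosb and Jun in knockdown ESC are not shown to be particular to ESC by this test.

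Single arrays decided this too. Without knockdown ESC replicate 1 the difference was 2.42 for Fos (adjusted p = 0.031), 1.31 for Jun (0.0415) and 1.39 for Egr1 (0.04), and all 3 were called. Without control ESC replicate 1 it was 2.24 for Fosb, which was called (0.0336). Over all alternatives the adjusted p lay between 0.031 and 0.498 for Fos, 0.0288 and 0.266 for Jun, 0.04 and 0.529 for Egr1, and 0.024 and 0.336 for Fosb. With array weights Fosb (2.24, 0.024), Jun (1.26, 0.0288) and Dusp1 (1.01, 0.0232) were called. Atf3, Ier2 (0.051 ± 0.16), Ier3 (0.028 ± 0.22) and Junb (0.38 ± 0.22) were not called in any alternative run.

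Between the cell states, the members split by gene. The labels do not state the NPC medium, and the part of medium in these differences was not tested. In control cells Jun and Atf3 were higher in NPC than in ESC, and Ier2, Ier3, Dusp1 and Junb were lower (limma). These are 2 of 9 genes called higher beside 23.5% of all genes, and 4 of 9 called lower beside 25.1%, so the count called higher is near the share over all genes. Jun was 11.31 ± 0.29 (SD, n = 3) in control NPC and 9.09 ± 0.21 in control ESC, a rise of 2.22 ± 0.21 (SE), 4.66-fold (adjusted p = 1.17e-06). Atf3 rose by 1.57 ± 0.21, 2.97-fold (adjusted p = 3.42e-05).

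The falls were smaller. Dusp1 fell by 0.81 ± 0.17 (adjusted p = 0.0014), Ier3 by 0.63 ± 0.15 (0.00345) and Ier2 by 0.61 ± 0.12 (5.59e-04), each with every NPC array below every ESC array. Junb fell by 0.44 ± 0.16 (adjusted p = 0.0321) with overlapping groups. Its call was lost without control ESC replicate 1 (0.124) or 3 (0.121) and without control NPC replicate 1 (0.0696) or 2 (0.135), within a range of 0.00232 to 0.135 over all alternatives. Fos (-0.26 ± 0.47), Fosb (0.45 ± 0.39) and Egr1 (-0.20 ± 0.29) did not pass the test, and their control groups overlapped.

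In knockdown cells Fosb, Fos and Egr1 joined Jun and Atf3 as higher in NPC. This comparison uses the same knockdown ESC arrays as the knockdown effect in ESC, so it is not a second observation of that effect. In limma's fit 5 of 9 were called higher beside 23.8% of all genes, and 2 of 9 (Ier2 and Ier3) lower beside 25.0%. Jun rose by 3.29 ± 0.21, 9.77-fold (adjusted p = 3.18e-08), Atf3 by 2.26 ± 0.21, 4.77-fold (1.30e-06), and Fosb by 2.25 ± 0.39, 4.77-fold (2.96e-04). Ier2 fell by 0.56 ± 0.12 (adjusted p = 0.00115) and Ier3 by 0.60 ± 0.15 (0.00486). Junb (-0.060 ± 0.16) and Dusp1 (0.0073 ± 0.17) did not pass the test.

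The rises of Fos and Egr1 were less stable. Fos rose by 1.46 ± 0.47 (adjusted p = 0.0194), with knockdown ESC replicate 1 inside the NPC range. Its call was lost without knockdown ESC replicate 2 (0.089) or 3 (0.0951) and without knockdown NPC replicate 1 (0.0613) or 3 (0.0577), over a range of 8.97e-05 to 0.0951. Egr1 rose by 0.77 ± 0.29 (adjusted p = 0.0419), again with replicate 1 of knockdown ESC inside the NPC range. Its call was lost without knockdown ESC replicate 2 (0.175) or 3 (0.167), knockdown NPC replicate 1 (0.111) or 3 (0.134), control ESC replicate 2 (0.0522) or control NPC replicate 2 (0.053), over a range of 4.05e-04 to 0.175.

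**Figure D3:**
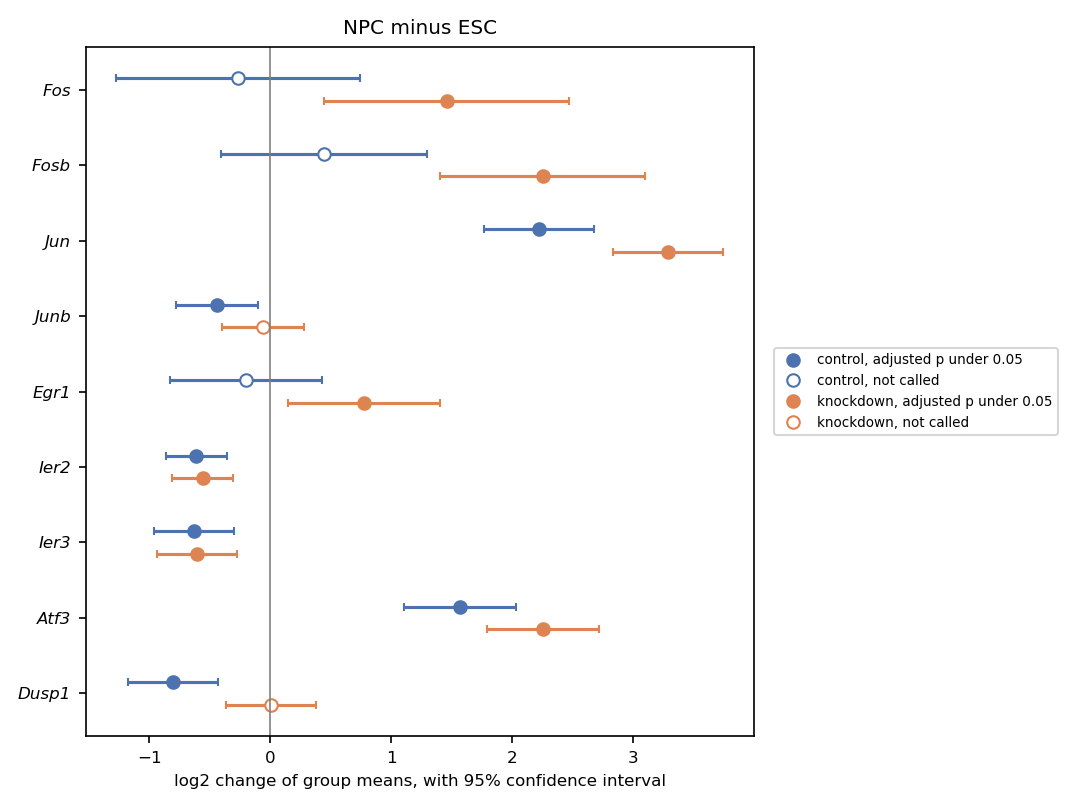
Change in log2 level, NPC minus ESC, for each gene in control and in knockdown cells (horizontal axis), with limma's 95% confidence interval; filled points have an adjusted p under 0.05. Jun and Atf3 are filled above 0 in both comparisons, Ier2 and Ier3 are filled below 0 in both, and Fos, Fosb and Egr1 are filled in knockdown cells alone.

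Ordered by level over the 4 groups, Jun and Atf3 were highest in NPC, where knockdown and control overlapped, lower in control ESC and lowest in knockdown ESC, with no overlap at either step below NPC. Fosb had its highest means in NPC (10.16 ± 0.58 in knockdown and 9.92 ± 0.57 in control, SD, n = 3), then 9.47 ± 0.75 in control ESC and 7.90 ± 0.47 in knockdown ESC. Its first 3 groups overlapped. Fos had means of 9.29 ± 0.60 in control ESC, 9.26 ± 0.34 in knockdown NPC, 9.03 ± 0.33 in control NPC and 7.81 ± 1.21 in knockdown ESC. Replicate 1 of that last group lay within the range of each of the others. Egr1 had its groups in the same order, at 10.83 ± 0.72 in knockdown ESC and between 11.53 and 11.74 in the others, which overlapped.

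Dusp1 was highest in control ESC (11.95 ± 0.34), with the other three groups between 11.14 and 11.44 and neighbours among them overlapping. Ier3 ran from knockdown ESC (8.54 ± 0.15) through control ESC (8.07 ± 0.10) and knockdown NPC (7.94 ± 0.37) to control NPC (7.43 ± 0.12). Control ESC and knockdown NPC overlapped, and the outer steps did not. Ier2 was near 8.53 to 8.55 in both ESC groups and 7.92 to 7.99 in both NPC groups. Junb means spanned 7.98 to 8.42, and neighbouring groups overlapped.

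Within a group the 9 genes tended to be high or low on the same array. In control NPC, replicate 3 was the highest of the 3 arrays for 9 of 9 genes, where it was highest for 31.9% of all genes. In knockdown ESC, replicate 1 was highest for 8 of 9 (27.6% of all genes), the exception being Ier3. In knockdown NPC, replicate 1 was highest for 7 of 9 (31.6%) and replicate 2 lowest for 8 of 9 (28.9%). In control ESC, replicate 3 was highest for 6 of 9 (28.3%). The median deviation of the 9 genes from their group mean was 0.32 for control NPC replicate 3 and -0.25 for knockdown NPC replicate 2, and the largest single deviation, 1.39, was Fos in knockdown ESC replicate 1. These counts describe genes on shared arrays and carry no test.

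**Figure D4:**
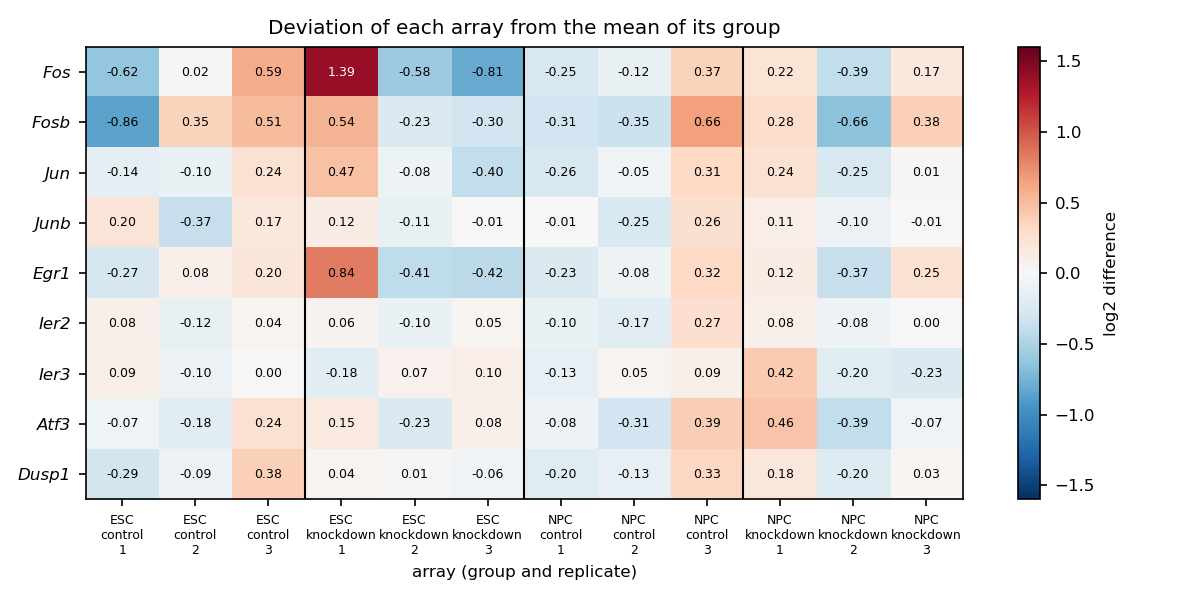
Deviation of each gene (rows) on each array (columns) from the mean of its group, in log2 units, with the value printed in the cell. Control NPC replicate 3 is above its group mean for all 9 genes, and the largest value is Fos in knockdown ESC replicate 1 (1.39).

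The other genes of the pathway were read from 6 lists holding 112 entries, of which 100 were measured. In knockdown ESC, 16 of the 100 fell and 1 rose by limma's test, beside 3.37% and 1.84% of all genes. In knockdown NPC 0 of the 100 were called by limma, beside 0.820% higher and 0.213% lower of all genes. An unadjusted p under 0.05 was found for 10 of the 100 and for 1789 of all 18784 genes, a like share. The lists were drawn up with earlier results of these data known and are described by their counts alone.

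Of 37 other immediate early genes measured, 7 fell in knockdown ESC and 0 rose, with a median of -0.18 against 0.017 over all genes. Ccn1, a secreted matrix protein gene responsive to serum, fell from 10.42 ± 0.43 (SD, n = 3) to 8.63 ± 0.60, by 1.79 ± 0.25 (SE), 3.45-fold (adjusted p = 0.00313). Its relative Ccn2 fell by 1.27 ± 0.19 (adjusted p = 0.00383), the zinc finger factor Klf6 by 0.96 ± 0.15 (0.00468), and Myc, a growth-promoting transcription factor, by 0.78 ± 0.11 (0.00298). Btg2, an antiproliferative gene, fell by 0.69 on the log2 scale. In each of these genes all knockdown arrays lay below all control arrays.

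Of 13 genes of negative feedback on MAP kinases, 4 fell and 0 rose, with a median of -0.35. The ERK phosphatase Dusp6 fell by 0.63 ± 0.10 (adjusted p = 0.00628), Dusp5 by 0.55 ± 0.12 (0.0194), the inhibitor Spry4 by 0.52 ± 0.13 (0.0369) and Dusp10 by 0.90 ± 0.24 (0.0484). Of 20 upstream kinases and factors, 2 fell: Srf, the serum response factor, by 0.53 ± 0.079 (adjusted p = 0.00383), and Mapk8, which encodes the kinase JNK1, by 0.34 ± 0.078 (0.0281).

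Of 8 other AP-1 subunits, 0 fell and Jdp2, a repressor that dimerises with Jun, rose by 0.60 ± 0.16 with overlapping groups (adjusted p = 0.0498). Of 14 AP-1 target genes, Plaur, the urokinase receptor gene, fell by 0.79 ± 0.18 (adjusted p = 0.0231) and the other 13 were not called. Of 8 heat shock genes, the chaperone genes Hspd1 (-0.44 ± 0.11, adjusted p = 0.0422) and Dnajb1 (-0.43 ± 0.11, 0.0389) fell. Leaving out 1 array at a time was followed for 15 of these called genes. Klf6, Ccn1, Ccn2, Myc, Dusp6 and Srf kept their call each time, with a highest adjusted p of 0.0382. The other 9 lost theirs at least once, Jdp2 in 11 of 12 cases. The count called in ESC went from 17 to 6 without control ESC replicate 3, to 7 without knockdown ESC replicate 2 or 3, and to 22 without control ESC replicate 1. It was 12 without control ESC replicate 2, knockdown ESC replicate 1 or knockdown NPC replicate 3.

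**Figure D5:**
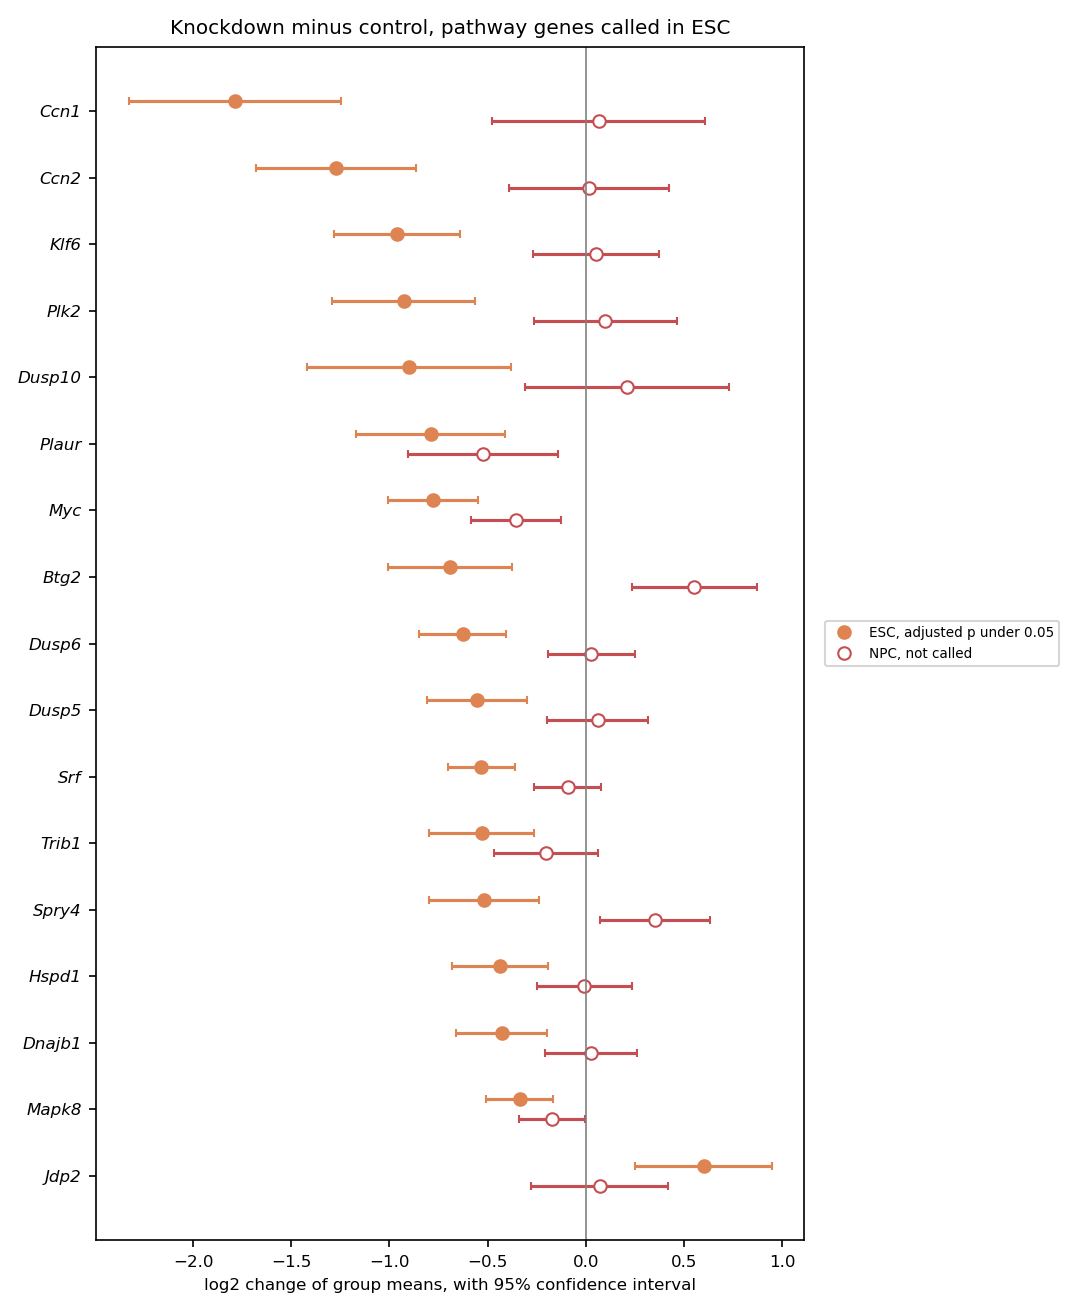
Change in log2 level, knockdown minus control, in ESC and in NPC (horizontal axis) for the 17 genes of the pathway lists called in ESC, with limma's 95% confidence interval; filled points have an adjusted p under 0.05. Ccn1 has the largest fall in ESC (-1.79), and the points in NPC are open for every gene.

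Between the states, 43 of the 100 genes were higher in NPC and 29 lower in control cells, beside 23.5% and 25.1% of all genes. In knockdown cells 43 were higher and 26 lower, beside 23.8% and 25.0%. Nr4a3, a nuclear receptor gene induced with Fos, was higher in NPC by 4.14 ± 0.12 in control and 4.23 ± 0.12 in knockdown cells. Fosl2, a Fos-family subunit, was higher by 1.73 ± 0.23 and 1.95 ± 0.23, and Jund, a Jun-family subunit often expressed without a stimulus, by 0.77 ± 0.13 and 0.83 ± 0.13. Srf was higher by 1.13 ± 0.079 and 1.58 ± 0.079. Socs3, a feedback inhibitor of LIF signalling, differed by -2.17 ± 0.13 and -2.64 ± 0.13, and Timp1, an inhibitor of matrix proteases, by -2.62 ± 0.19 and -2.79 ± 0.19. Each of these had a limma adjusted p under the threshold.

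Markers of other cell types were read beside these results. In knockdown ESC 0 of 6 ESC markers were called, 1 of 5 neural progenitor markers fell (Pax6), 2 of 5 neuronal markers fell (Tubb3 and Map2), 1 of 5 endoderm markers fell (Dab2) and 1 of 5 endothelial markers rose (Pecam1). The mean level of the neural progenitor list was 7.97 to 8.16 in control and 7.65 to 7.79 in knockdown ESC, against 10.44 to 10.80 in control NPC. That of the neuronal list was 8.87 to 8.93 and 8.66 to 8.80, that of the endoderm list 7.47 to 7.55 and 7.24 to 7.44, and that of the endothelial list 7.23 to 7.34 and 7.42 to 7.45. In NPC, 3 of 6 ESC markers rose and 2 of 5 endothelial markers fell with knockdown. The mean level of the ESC list was 5.93 to 6.61 in control and 6.85 to 8.01 in knockdown NPC, against 12.52 to 12.55 in control ESC. That of the endothelial list was 7.10 to 8.11 in control and 6.09 to 6.62 in knockdown NPC. The part of these shifts in the levels of the immediate early genes was not tested.

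The genes most like the 4 most variable members were found by the root mean square difference of centred log2 profiles over all 12 arrays, which follows the cell state and the shared arrays and carries no test. For Fos (SD 0.88 over the arrays) the nearest was Egr1 at 0.37, followed by Gabra3 at 0.48 and Plk2 at 0.49. For Fosb (SD 1.05) they were Id3 at 0.37, Gria3 at 0.39 and Has2 at 0.40, with Fos at rank 13. Jun (SD 1.50) was nearest to Fzd8 at 0.24, Sgce at 0.25 and Gbe1 at 0.26. For Atf3 (SD 1.06) they were Rhob at 0.17, Camk2d at 0.20 and Dusp10 at 0.21. So 1 of the 12 nearest places was held by another member, Egr1 beside Fos.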

How the data were processed

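RNA was measured on 12 Affymetrix MoGene arrays. The deposited values are log2, 1 for each probe set on each array. The submitters' processing notes name affy, RMA and limma. For versions and the genome build, nothing is given in the sources used here. RMA removes background, equalizes the distributions of the arrays and combines probes, so differences of dim probe sets are compressed.

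The platform annotation gave 18786 of 21212 probe sets a single symbol and 6 more than 1, and it did not list 2420, which are unnamed here. Taking the probe set of highest mean per gene left 18784 genes. By Entrez ID 18775 listed probe sets matched a RefSeq table of GRCm38.p6, and 0 symbols differed.

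Using limma 3.58.1 and R 4.3.3, 1 model with a mean per group was fitted over the 12 arrays (lmFit, contrasts.fit, eBayes; 8 residual and 4.81 prior degrees of freedom). Adjusted p-values are Benjamini-Hochberg over 18784 genes, two-sided, and a gene rose or fell at an adjusted p under 0.05. Errors after ± are limma's SE unless marked SD. The number of arrays limits the precision. The steps were tested on simulated data.

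The members and lists were chosen with earlier results of these data known. Named genes were the 9 members, Kdm5b, in each pathway list and contrast the called genes with up to the 4 smallest p, and the 3 genes nearest to each of the 4 members with the largest SD. Replicate numbers come from the titles. Deviations from group means, compared between control arrays of ESC and NPC with the same number, correlated at 0.266, 0.286 and 0.334. On that ground, which comes from the data and not the labels, the numbers were taken to pair that contrast. The values given are from the fit without a block, and a replicate block changed no member's call in it. The other contrasts each had a pair under 0.1. Alternatives were a replicate block, a low-value filter (13149 genes kept), array weights, an intensity trend with robust prior, quantile normalization, median centring, mean probe sets, adjustment over all probe sets, the 6 arrays of a contrast, a threshold of 0.01 and leaving out each array.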

Additional observations from a re-analysis of the deposited data

Results flagged for a closer look

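Of the 9 members, 0 were called for a difference between ESC and NPC in the response to knockdown. Of the 100 other pathway genes, 6 were called by limma's test of that difference, each with the higher value in NPC, beside 1.18% of all genes called higher and 0.245% called lower. The lists were drawn up with earlier results of these data known. Kdm5b itself fell less in NPC than in ESC, a difference of 0.96 (limma, adjusted p = 0.0172), and the part of this in the 6 calls was not tested. The differences (NPC effect minus ESC effect, log2) were 1.85 for Ccn1 (adjusted p = 0.0314), 1.29 for Ccn2 (0.0397), 1.01 for Klf6 (0.0397), 1.24 for Btg2 (0.0185), 0.66 for Dusp6 (0.0469) and 0.87 for Spry4 (0.0407). In ESC these genes fell, by 1.79 for Ccn1, 1.27 for Ccn2, 0.96 for Klf6, 0.69 for Btg2, 0.63 for Dusp6 and 0.52 for Spry4. In NPC none was called: Btg2 changed by 0.55, Spry4 by 0.35 and the other four by 0.018 to 0.065. Ccn1 stood at 12.13 ± 0.05 in control and 12.19 ± 0.08 in knockdown NPC (SD, n = 3), with both groups above every ESC array. Ccn2 stood at 12.76 ± 0.09 and 12.78 ± 0.12.

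With the replicate block Ccn2 (adjusted p = 0.0556) and Dusp6 (0.0516) lost this call. Dusp6 also lost it with median centring (0.0537) and with adjustment over all probe sets (0.0502). The calls rested on single arrays too. The count fell from 6 to 3 without control ESC replicate 2, to 2 without control NPC replicate 1 or knockdown NPC replicate 3, to 1 without control ESC replicate 3, knockdown ESC replicate 2, control NPC replicate 2 or knockdown NPC replicate 1, and to 0 without knockdown ESC replicate 3 or knockdown NPC replicate 2. It was 7 without knockdown ESC replicate 1 or control NPC replicate 3, and 9 without control ESC replicate 1. Btg2 lost its call least often, without knockdown ESC replicate 3 (adjusted p = 0.0625) and without knockdown NPC replicate 2 (0.0554). The highest adjusted p over the arrays left out was 0.133, for Dusp6.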

How the results depend on the processing

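No called value changed direction. Of 1017 member values under alternatives, 963 kept their side of the threshold, 35 lost the call and 19 gained it. For the other named genes it was 4088 of 4294, with 183 lost and 23 gained. These totals include values that were not called in the main fit. Taking mean probe sets left the members' levels unchanged, since no member has more than a single probe set. Among 5311 values, 106 that were not called changed sign.

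In ESC, the 2 members called became 7 with array weights, 1 with an intensity trend (Jun), 1 with the 6 arrays alone, 1 with those and a replicate block, and 0 at a threshold of 0.01; leaving out 1 array gave 0 to 4. In both 6-array fits the 1 called was Atf3 (0.0435 and 0.0356), and neither Fosb (0.0544 and 0.0785) nor Jun (0.0501 and 0.0663) was called. The 17 pathway genes became 30 with array weights, 11 with the 6 arrays, 9 with those and a replicate block, and 7 at 0.01; leaving out 1 array gave 6 to 22. For the difference of the effects, 0 members became 3 with array weights and 0 to 3 when 1 array was left out, and 6 pathway genes became 15 with array weights, 4 with the replicate block, 0 at 0.01 and 0 to 9 when 1 array was left out. In NPC, 0 pathway genes became 0 to 1. The counts of the state comparisons stayed within 1.5 times.

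With the replicate block on all 12 arrays, Atf3 in ESC was called (-0.68, limma adjusted p = 0.0351, range 0.0175 to 0.34) and Ccn2 (0.0556) and Dusp6 (0.0516) lost their difference; no other member's call changed. Deviations from group means, compared between control and knockdown ESC arrays with the same number, correlated at 0.030, -0.026 and 0.092. These values gave no ground for pairing the numbers there, and with 3 arrays a group they cannot exclude a pairing. Over all genes 979 were called in ESC, 193 without control ESC replicate 3, 1536 without control ESC replicate 1 and 2887 with array weights. The share of called differences above 0 was 82.8%, 71.1% with median centring and 71.4% with quantile normalization. With median centring the median of all genes for the state in knockdown cells was -0.117, and Egr1 lost its call there (0.0516). Small changes cannot be resolved with 3 arrays a group.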
